A study of Homo sapiens with 6 samples.

Results

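Receptor tyrosine kinases outside the ERBB family were followed in A431, an established line of human epidermoid carcinoma known for its abundant receptor for epidermal growth factor (EGFR). The members were 48 receptors listed by name, and the probe set annotated to each was read from the deposited array values. A probe set was found for 47 of them, each with a single probe set, among 17687 named genes in all, and EPHB2 was not analysed here. The question was which of these receptors were expressed and which differed when the EGFR kinase was inhibited. Cells of the EGF plus gefitinib group received 100 ng/ml of epidermal growth factor (EGF), a ligand of EGFR, and 10 µM of gefitinib, which blocks the kinase of that receptor. The EGF group received the same dose of EGF without the inhibitor, and the control group was left untreated. All groups had been grown in medium with 10% serum and then starved for 24 h, and the labels give a harvest after 30 min without saying when gefitinib was added relative to EGF. No group received gefitinib alone. Each group held 2 arrays of this single line, labelled biological replicates without a statement that they were separate cultures. The p-values therefore rest on the spread between arrays within groups, partly drawn from other probe sets, and that spread may be technical.

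Most receptor tyrosine kinases are single-pass membrane proteins that dimerise when a ligand binds, phosphorylate each other and recruit adaptors that feed the RAS-ERK and PI3K-AKT pathways. Because many of them converge on the same adaptors as EGFR, receptors such as MET, AXL and IGF1R are known as bypass receptors in tumours treated with EGFR inhibitors. In skin epithelium, MET answers hepatocyte growth factor, FGFR2 answers growth factors made by the dermis, and EPH receptors read ephrins on neighbouring cells.

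The arrays carried 21448 transcript probe sets, of which 38.4% to 42.1% lay above the background limit of their array, which was set at the 95th percentile of its negative controls (7.14 to 7.65 on the log2 scale). All values below are deposited log2 signals, which were used as they stand, and levels of different probe sets were not set against each other. Of 8 check genes known to answer EGF, 3 were called higher and 4 lower in EGF plus gefitinib than in EGF, 4 higher and 2 lower in EGF than in control, and 3 higher and 1 lower in EGF plus gefitinib than in control. DUSP6, a phosphatase that acts on ERK, had 11.23 and 10.90 in EGF plus gefitinib, 12.58 and 12.42 in EGF and 8.36 and 8.56 in control. FOSL1 had 10.21 and 9.55 in EGF plus gefitinib, 13.88 and 13.87 in EGF and 9.95 and 9.79 in control. In the same order of groups, PHLDA1 had 13.18 and 12.54, 13.50 and 13.40, and 10.86 and 10.61. TXNIP had 11.35 and 11.42, 5.74 and 5.84, and 10.39 and 10.11. BCL6 had 13.12 and 12.43, 7.83 and 7.53, and 12.60 and 12.71. EGR1, an immediate-early transcription factor, had 10.23 and 9.10 in EGF plus gefitinib, 11.80 and 11.77 in EGF and 11.70 and 11.67 in control. FOS, another early gene, and SPRY4 lay below the limit on every array. Both enter the counts above, FOS as higher and SPRY4 as lower in EGF plus gefitinib than in EGF. EGFR itself was at 15.26 and 15.36 in EGF plus gefitinib, against 14.44 and 14.44 in EGF, a log2 difference of 0.87 ± 0.17 (SE, limma adjusted p = 0.0125). As for the labelled cell type, all 10 measured keratinocyte markers lay above the limit on all 6 arrays. Markers of other cell types were mostly at or below it on every array, namely 8 of 10 for fibroblasts, 8 of 10 for endothelium, 6 of 9 for leukocytes, 5 of 6 for melanocytes and 5 of 6 for neural cells. The endothelial list holds KDR, TEK, TIE1 and FLT1 of the receptor members, and the fibroblast list PDGFRA and PDGFRB. CSF1R and FLT3 are on the leukocyte list, KIT on the melanocyte list and NTRK3 on the neural list. These counts are therefore not separate from the detection of those receptors given below. PTPRC, the pan-leukocyte antigen, stayed at 4.26 to 4.56. The summed linear level of the leukocyte list, carried by LCP1 and CD68, was nevertheless 6893 to 9106 in EGF plus gefitinib, 17138 to 17678 in EGF and 10839 to 10907 in control. The fibroblast list summed to 631 to 811 in EGF plus gefitinib, 578 to 695 in EGF and 1115 to 1168 in control, and the neural list to 270.4 to 363 in EGF plus gefitinib, 199 to 204 in EGF and 176 to 218 in control. The keratinocyte list summed to 311898 to 317551 in EGF plus gefitinib, 457628 to 468328 in EGF and 343319 to 347606 in control. By the labels all 6 arrays were of the single line A431, so these sums are not read as shares of cell types. The part of these levels in the results below was not tested.

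Most receptors of the list were not measurable in these cells. A member was taken as detected in a group when it exceeded the limit on both arrays of that group, and 16 of 47 members (34%) were detected in at least 1 group, against 42% of all transcript probe sets. The 16 were MET, MST1R, AXL, IGF1R, FGFR2, FGFR4, DDR1, ROR1, RYK, PTK7, EPHA1, EPHA2, EPHA4, EPHB3, EPHB4 and EPHB6. Of these, 11 lay above the limit on all 6 arrays (23.4% of the members, against 35.6% of all transcript probe sets). The number detected was 13 in EGF plus gefitinib, 14 in EGF and 15 in control. With the 99th percentile of the negative controls as the limit, 9 members remained detected, namely MET, AXL, IGF1R, FGFR2, DDR1, RYK, PTK7, EPHA2 and EPHB6. The other 31 members lay at or below the limit on every array. They included all 5 receptors for PDGF, stem cell factor, CSF1 and FLT3 ligand, all 3 VEGF receptors (FLT1, KDR and FLT4), TEK and TIE1 of the angiopoietin receptors, the neurotrophin receptors NTRK2 and NTRK3, and the group of RET, ROS1, ALK and LTK. DDR2, ROR2, MUSK, INSR, INSRR, FGFR1, FGFR3, MERTK, TYRO3, EPHA3, EPHA5, EPHA7, EPHA8, EPHA10 and EPHB1 were also at or below the limit throughout, which sets an upper bound on their signal and does not show that they are absent.

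**Figure D1:**
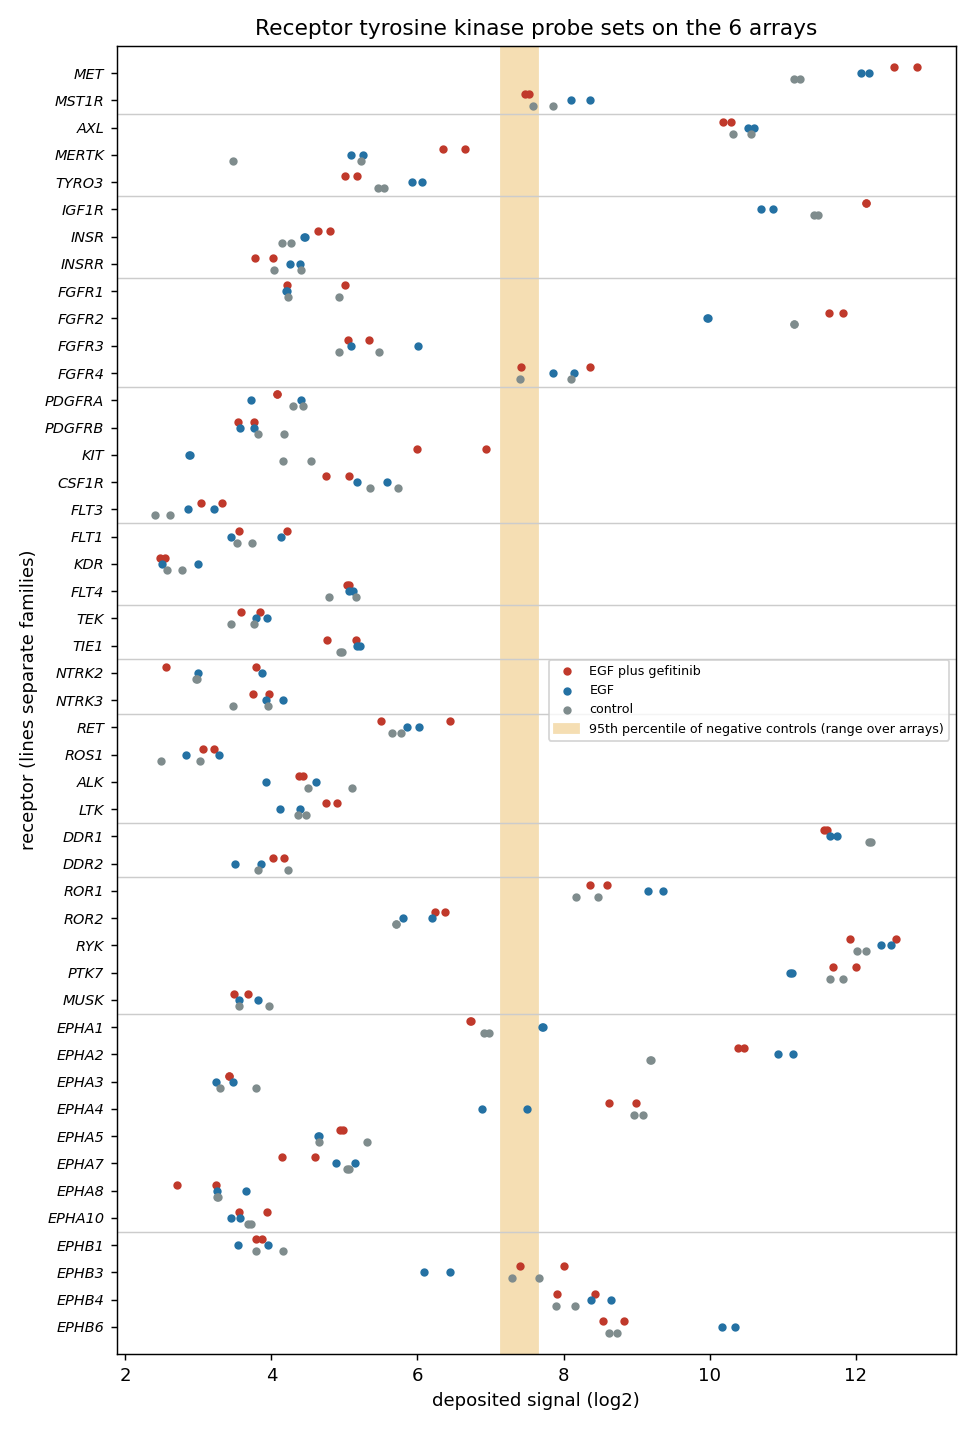
Deposited log2 signal (x axis) of the probe sets of 47 receptors (rows, grouped by family) on the 6 arrays, with 1 point per array and the shaded band giving the range over arrays of the 95th percentile of the negative controls (7.14 to 7.65). The 31 members at or below the limit on every array lie left of or inside the band, and the points of FGFR2, IGF1R, EPHA2 and EPHB6 are spread out by group.

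With gefitinib added to EGF, 11 of 47 members were called at an adjusted p under 0.05 in limma against EGF alone, a share of 23.4% beside 18.7% of all probe sets. Of these, 6 were higher (IGF1R, FGFR2, KIT, PTK7, EPHA4 and EPHB3, 12.8% beside 8.86% of all) and 5 were lower (MST1R, TYRO3, ROR1, EPHA1 and EPHB6, 10.6% beside 9.81% of all). The median log2 difference over the 47 members was -0.01, beside 0.05 over all probe sets. KIT and TYRO3 lay below the background limit on every array. EGF against control gave 10 called members (21.3% beside 11.9% of all), of which 5 were higher (MET, ROR1, EPHA1, EPHA2 and EPHB6, 10.6% beside 6.61%) and 5 were lower (IGF1R, FGFR2, KIT, EPHA4 and EPHB3, 10.6% beside 5.3%). The median there was 0.13, beside -0.03 over all probe sets. EGF plus gefitinib against control gave 3 called members (6.38% beside 3.89% of all), namely MET, EPHA2 and KIT, all higher (6.38% beside 2.19%), and none was lower (0% beside 1.7% of all). At an unadjusted p under 0.05, limma gave 16 members for EGF plus gefitinib against EGF (34% beside 31.4% of all probe sets), 15 for EGF against control (31.9% beside 26.5%) and 12 for EGF plus gefitinib against control (25.5% beside 20.8%). The comparisons share arrays (the first and the second share the EGF arrays), so their values are given side by side and their likeness is not a separate result. The arrays of EGF plus gefitinib and EGF did not overlap for 28 of the 47 members, beside 57.1% of all probe sets. For EGF and control this held for 26 members (55.5% of all probe sets), and for EGF plus gefitinib and control for 24 (50.4%).

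**Figure D2:**
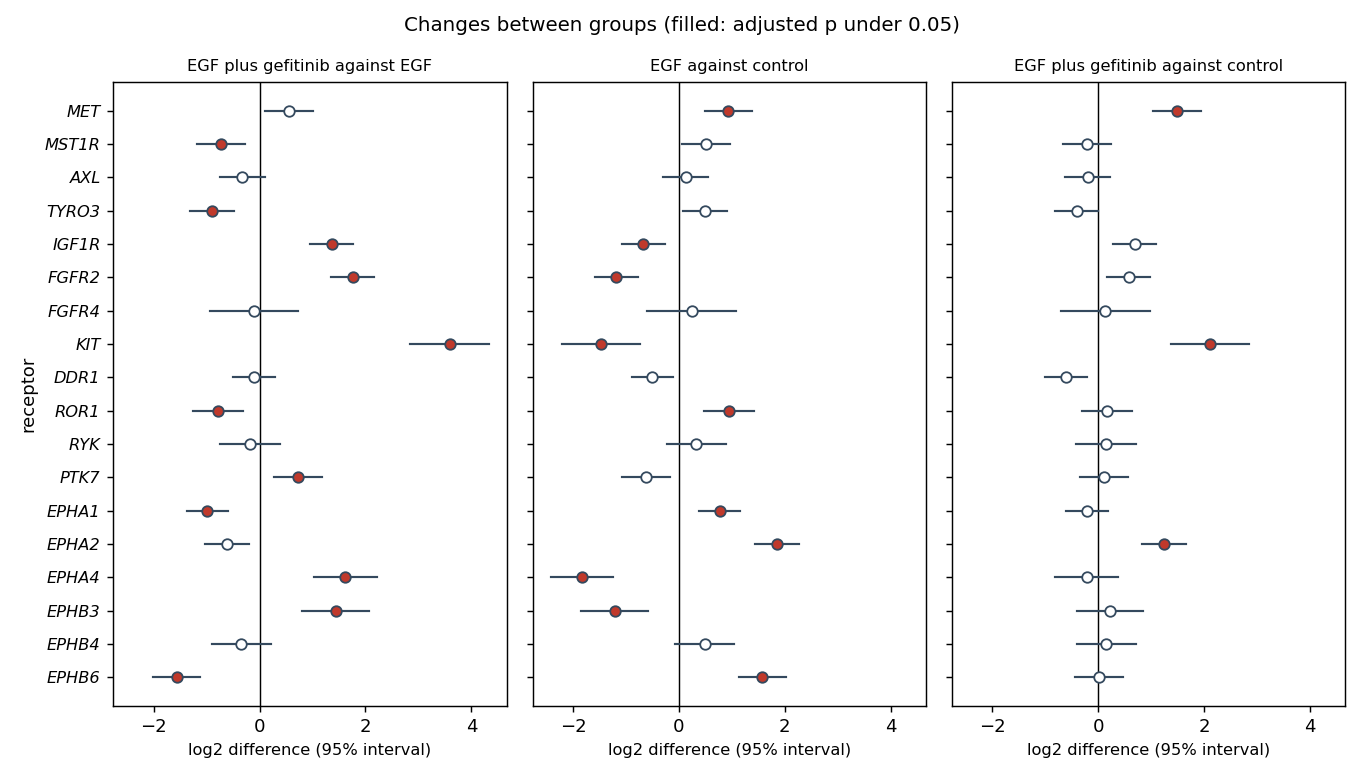
Log2 difference (x axis, with the 95% confidence interval from limma as the bar) of the detected or called receptors (rows) in EGF plus gefitinib against EGF, EGF against control, and EGF plus gefitinib against control, with filled points for an adjusted p under 0.05. FGFR2 stands at 1.76 in the first comparison and -1.19 in the second, EPHB6 at -1.57 and 1.58, and MET at 0.56 and 0.93.

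The promoters of 4 receptors, each with a single window, are printed as examples of the main patterns: EPHB6, lower with gefitinib than with EGF alone, IGF1R, higher, and EPHA2 and MET, higher than control in both EGF-treated groups. FGFR2 and EPHA4 rose more than IGF1R with gefitinib against EGF and are not printed. The windows are from RefSeq on GRCh38.p14 and run from 250 bases before to 50 after the annotated start, 5′ to 3′ on the gene's strand. They lie at chr7:142862506-142862805 (plus strand) for EPHB6, chr15:98648289-98648588 (plus strand) for IGF1R, chr1:16156020-16156319 (minus strand) for EPHA2 and chr7:116671946-116672245 (plus strand) for MET. Capitals mark matches on either strand to the GC box (GGGCGG), the cAMP response element CRE (TGACGTCA) and the E-box (CACGTG), and no letters of the AP-1 motif (TGACTCA) or the FOXO motif (TGTTTAC) were found in these 4 windows.
EPHB6: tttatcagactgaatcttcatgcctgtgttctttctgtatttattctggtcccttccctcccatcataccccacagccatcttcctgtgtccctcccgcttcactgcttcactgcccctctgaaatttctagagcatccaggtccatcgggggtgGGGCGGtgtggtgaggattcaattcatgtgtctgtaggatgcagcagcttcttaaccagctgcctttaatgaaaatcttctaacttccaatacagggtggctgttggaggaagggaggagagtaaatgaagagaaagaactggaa
IGF1R: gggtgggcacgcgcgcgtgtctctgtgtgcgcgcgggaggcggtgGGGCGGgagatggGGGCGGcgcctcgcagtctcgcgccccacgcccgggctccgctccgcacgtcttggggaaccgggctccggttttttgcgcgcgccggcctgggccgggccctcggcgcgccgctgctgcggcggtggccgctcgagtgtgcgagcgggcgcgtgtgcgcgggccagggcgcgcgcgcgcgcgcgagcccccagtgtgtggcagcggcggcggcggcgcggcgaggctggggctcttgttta
EPHA2: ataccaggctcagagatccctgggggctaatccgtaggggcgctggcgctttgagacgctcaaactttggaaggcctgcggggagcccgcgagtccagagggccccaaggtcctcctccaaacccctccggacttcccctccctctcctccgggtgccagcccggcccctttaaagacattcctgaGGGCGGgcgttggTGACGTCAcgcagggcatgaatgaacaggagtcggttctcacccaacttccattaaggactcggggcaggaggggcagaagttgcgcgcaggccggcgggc
MET: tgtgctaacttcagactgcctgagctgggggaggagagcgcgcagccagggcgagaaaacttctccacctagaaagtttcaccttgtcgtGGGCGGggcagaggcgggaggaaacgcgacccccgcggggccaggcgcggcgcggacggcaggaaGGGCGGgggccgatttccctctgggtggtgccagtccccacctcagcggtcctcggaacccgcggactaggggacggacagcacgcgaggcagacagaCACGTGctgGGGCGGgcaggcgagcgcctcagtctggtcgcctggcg
EPHB6 held 1 GC box, IGF1R held 2, EPHA2 held 1 GC box and 1 CRE, and MET held 3 GC boxes and 1 E-box. RefSeq windows were matched for 43 of the 47 measured receptors, 72 windows in all since 16 of them have more than 1. The GC box stood in 62.5% of these 72 windows and in 45.0% of all 35116 RefSeq windows, the CRE in 2.78% (EPHA2 and FLT1) and 1.85%, the E-box in 6.94% and 7.26%, the AP-1 motif in 4.17% (CSF1R, DDR1 and DDR2) and 4.95%, and the FOXO motif in 4.17% (AXL, NTRK2 and TEK) and 3.42%. A match describes the letters only, and nothing was measured at these promoters.

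MET, the receptor for hepatocyte growth factor, was the member highest above control when gefitinib was present among those with a measurable signal. Its signal was 12.52 and 12.84 in EGF plus gefitinib, 12.08 and 12.18 in EGF and 11.15 and 11.24 in control. The 3 groups did not overlap, with control lowest and EGF plus gefitinib highest. Against control it was 2.80-fold higher in EGF plus gefitinib (log2 difference 1.49 ± 0.19, SE, adjusted p = 0.0155) and 1.91-fold higher in EGF (0.93 ± 0.19, adjusted p = 0.0227). The difference between EGF plus gefitinib and EGF, 0.56 ± 0.19 with a 95% confidence interval of 0.11 to 1.0, missed the threshold (adjusted p = 0.0885). The call of EGF plus gefitinib against control was lost without control 1 (adjusted p = 0.101), control 2 (0.104) or EGF plus gefitinib 2 (0.0919), and that of EGF against control without either control or either EGF array (0.0954 to 0.124). MST1R, the related receptor for macrophage-stimulating protein, had 7.53 and 7.47 in EGF plus gefitinib, 8.37 and 8.10 in EGF and 7.85 and 7.59 in control. It was 1.66-fold lower in EGF plus gefitinib than in EGF (-0.73 ± 0.19, adjusted p = 0.0386), where only 1 of the 2 EGF plus gefitinib arrays exceeded its limit. That call was lost when any of the 6 arrays was left out (adjusted p 0.0553 to 0.197). Against control, EGF did not pass (0.51 ± 0.19, adjusted p = 0.144).

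Among the TAM receptors, which bind GAS6 and protein S, AXL was detected and was not called in any comparison. AXL had 10.18 and 10.29 in EGF plus gefitinib, 10.53 and 10.60 in EGF and 10.32 and 10.56 in control. The EGF plus gefitinib arrays were the lowest, by 0.33 ± 0.18 against EGF (SE, interval of the difference -0.76 to 0.10, adjusted p = 0.270), while EGF and control overlapped. TYRO3 had 5.17 and 5.01 in EGF plus gefitinib, 5.92 and 6.06 in EGF and 5.54 and 5.46 in control. Its difference between EGF plus gefitinib and EGF was called (-0.91 ± 0.18, adjusted p = 0.0126), but every array was below its limit, so no fold is given. Without EGF 1, EGF 2 or EGF plus gefitinib 2 that call was lost (adjusted p = 0.0550, 0.0837 and 0.0557). MERTK, also below the limit throughout, had 6.65 and 6.35 in EGF plus gefitinib, 5.09 and 5.26 in EGF and 3.48 and 5.23 in control. It missed the threshold in EGF plus gefitinib against EGF (adjusted p = 0.114) and against control (adjusted p = 0.0628), and was called in both when the prior followed an intensity trend.

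IGF1R, the receptor for insulin-like growth factors, was higher in EGF plus gefitinib than in EGF, and lower in EGF than in control. Its signal was 12.14 and 12.15 in EGF plus gefitinib, 10.70 and 10.87 in EGF and 11.44 and 11.48 in control, 3 groups that did not overlap. EGF plus gefitinib was 2.56-fold higher than EGF (log2 difference 1.36 ± 0.17, SE, adjusted p = 0.00252), a call that held without each array in turn. EGF was 1.59-fold lower than control (-0.67 ± 0.17, adjusted p = 0.0478), a call that was lost when any of the 6 arrays was left out (adjusted p 0.0588 to 0.221). EGF plus gefitinib against control gave 0.69 ± 0.17 and missed the threshold (adjusted p = 0.0754). INSR, the insulin receptor, had 4.64 and 4.81 in EGF plus gefitinib, 4.45 and 4.46 in EGF and 4.28 and 4.15 in control, all below the limit, as was its relative INSRR.

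FGFR2, whose epithelial splice form answers FGF7 and FGF10, gave the largest rise with gefitinib against EGF among the members with a measurable signal. FGFR2 had 11.82 and 11.64 in EGF plus gefitinib, 9.98 and 9.97 in EGF and 11.16 and 11.15 in control. EGF was the lowest group and EGF plus gefitinib the highest, without overlap. The rise over EGF was 3.38-fold (1.76 ± 0.17, SE, adjusted p = 0.00105) and held without each array in turn. EGF was 2.28-fold lower than control (-1.19 ± 0.17, adjusted p = 0.00718), and this call was lost without control 1 (adjusted p = 0.0504), EGF 1 (0.0540) or EGF 2 (0.0547). Against control, EGF plus gefitinib gave 0.57 ± 0.17 (adjusted p = 0.116). FGFR4 had 7.42 and 8.36 in EGF plus gefitinib, 8.14 and 7.85 in EGF and 7.41 and 8.10 in control, and the groups overlapped. Its difference between EGF plus gefitinib and EGF was -0.11 ± 0.36, with an interval of -0.94 to 0.73 that leaves changes of either sign possible. FGFR1 had 4.20 to 5.0 and FGFR3 had 4.93 to 6.01 over the 6 arrays, below every limit.

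KIT, the receptor for stem cell factor and a marker of melanocytes and mast cells, had the largest fitted difference of all 47 members, entirely below the background limit. Its signal was 6.94 and 6.0 in EGF plus gefitinib, 2.87 and 2.88 in EGF and 4.16 and 4.55 in control. The groups did not overlap, and the EGF arrays were the lowest. The fitted log2 differences were 3.59 ± 0.32 for EGF plus gefitinib against EGF (SE, adjusted p = 0.000732), -1.48 ± 0.32 for EGF against control (adjusted p = 0.0261) and 2.11 ± 0.32 for EGF plus gefitinib against control (adjusted p = 0.0216). No fold is given, since no array exceeded its limit. The first call held without each array in turn, the second was lost without either control or either EGF array (adjusted p 0.0730 to 0.134), and the third was lost when any of the 6 arrays was left out (0.0522 to 0.124). Of the 6 measured melanocyte markers, 5 including KIT were at or below the limit on all arrays, and the summed level of the list was 563 to 785 in EGF plus gefitinib, 460.4 to 467 in EGF and 524 to 722 in control. PDGFRA, PDGFRB, CSF1R and FLT3 of the same family were also below the limit and were not called.

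DDR1, a receptor for collagen, was detected on all arrays and was not called. It had 11.60 and 11.57 in EGF plus gefitinib, 11.65 and 11.74 in EGF and 12.18 and 12.21 in control. Both EGF-treated groups lay below control, by 0.61 ± 0.17 for EGF plus gefitinib (SE, adjusted p = 0.0952) and 0.50 ± 0.17 for EGF (adjusted p = 0.107), differences that missed the threshold. The interval between EGF plus gefitinib and EGF was -0.50 to 0.29. DDR2, the other collagen receptor, had 3.50 to 4.23 over the 6 arrays, below every limit.

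The receptors of Wnt ligands and the pseudokinases among them did not share a direction. ROR1, a receptor for WNT5A, had 8.60 and 8.36 in EGF plus gefitinib, 9.16 and 9.36 in EGF and 8.47 and 8.17 in control. The EGF arrays stood above the other 4, which overlapped. ROR1 was 1.72-fold lower in EGF plus gefitinib than in EGF (-0.78 ± 0.20, SE, adjusted p = 0.0353) and 1.92-fold higher in EGF than in control (0.94 ± 0.20, adjusted p = 0.0261). The first call was lost without either EGF or either EGF plus gefitinib array (adjusted p 0.0638 to 0.173), and the second without either control or either EGF array (0.0702 to 0.145). PTK7, a pseudokinase of planar cell polarity, had 11.69 and 12.01 in EGF plus gefitinib, 11.11 and 11.13 in EGF and 11.65 and 11.83 in control. Here the EGF arrays were the lowest and the other groups overlapped. PTK7 was 1.66-fold higher in EGF plus gefitinib than in EGF (0.73 ± 0.19, adjusted p = 0.0381), and the call held without EGF plus gefitinib 1 (0.0466) but not without any other array (0.0608 to 0.153). With each array centred on its median that call was also lost (adjusted p = 0.0560). EGF against control gave -0.62 ± 0.19 for PTK7 (adjusted p = 0.0851). RYK, a pseudokinase that binds Wnt proteins, had 11.92 and 12.55 in EGF plus gefitinib, 12.48 and 12.35 in EGF and 12.02 and 12.15 in control, and was not called in any comparison. The EGF plus gefitinib arrays of RYK were the lowest and the highest of the 6, and its difference from EGF was -0.18 ± 0.24 (interval -0.75 to 0.38).

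The EPHA receptors, which mainly bind the membrane-anchored ephrin-A ligands, included members that were highest and members that were lowest in the EGF group. EPHA2 had 10.38 and 10.48 in EGF plus gefitinib, 11.14 and 10.93 in EGF and 9.18 and 9.19 in control, without overlap. Against control it was 2.37-fold higher in EGF plus gefitinib (1.24 ± 0.18, SE, adjusted p = 0.0182) and 3.61-fold higher in EGF (1.85 ± 0.18, adjusted p = 0.00176). The second call held without each array in turn, and the first was lost without either control or either EGF plus gefitinib array (adjusted p 0.0633 to 0.117). EGF plus gefitinib against EGF gave -0.61 ± 0.18 (interval -1.02 to -0.19), just short of the threshold (adjusted p = 0.0534). EPHA2 was called in that comparison with each array centred on its median. EPHA4 ran the other way, with 9.0 and 8.63 in EGF plus gefitinib, 7.5 and 6.89 in EGF and 8.96 and 9.09 in control. The EGF arrays were the lowest, 1 of them above its limit and 1 below, and the other groups overlapped. EPHA4 was 3.06-fold higher in EGF plus gefitinib than in EGF (1.62 ± 0.25, adjusted p = 0.00560) and 3.56-fold lower in EGF than in control (-1.83 ± 0.25, adjusted p = 0.00589). Both calls held without each array in turn. EPHA1 had 6.72 and 6.73 in EGF plus gefitinib, 7.71 and 7.72 in EGF and 6.97 and 6.91 in control, so that only the EGF arrays exceeded the limit. It was lower in EGF plus gefitinib than in EGF by at least 1.18-fold (-0.98 ± 0.17, adjusted p = 0.00743) and higher in EGF than in control by at least 1.34-fold (0.77 ± 0.17, adjusted p = 0.0272). The first of these was lost without EGF 2 (adjusted p = 0.0507), and the second without either control or either EGF array (0.114 to 0.138). EPHA3, EPHA5, EPHA7, EPHA8 and EPHA10 were below the limit on every array and were not called.

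The EPHB receptors, which mainly bind ephrin-B ligands, held the largest fall with gefitinib against EGF among the members. EPHB6, a family member without kinase activity, had 8.54 and 8.83 in EGF plus gefitinib, 10.34 and 10.17 in EGF and 8.73 and 8.62 in control. Only the EGF arrays stood apart, and EGF plus gefitinib overlapped with control. EPHB6 was 2.96-fold lower in EGF plus gefitinib than in EGF (-1.57 ± 0.19, SE, adjusted p = 0.00213) and 2.98-fold higher in EGF than in control (1.58 ± 0.19, adjusted p = 0.00383), calls that held without each array in turn. Between EGF plus gefitinib and control the difference was 0.01 ± 0.19, with an interval of -0.44 to 0.46. EPHB3 had 8.0 and 7.40 in EGF plus gefitinib, 6.45 and 6.08 in EGF and 7.29 and 7.66 in control, with both EGF arrays below the limit. It was higher in EGF plus gefitinib than in EGF by at least 1.25-fold (1.43 ± 0.27, adjusted p = 0.0106) and lower in EGF than in control by at least 1.07-fold (-1.21 ± 0.27, adjusted p = 0.0293). The first call was lost without EGF 2 (adjusted p = 0.0713) or EGF plus gefitinib 1 (0.0520), and the second without either control or either EGF array (0.0740 to 0.154). EPHB4, the receptor for ephrin-B2, had 8.43 and 7.91 in EGF plus gefitinib, 8.38 and 8.65 in EGF and 8.16 and 7.89 in control. It was not called in any comparison (EGF against control 0.49 ± 0.24, interval -0.07 to 1.05, adjusted p = 0.245). EPHB1 was below the limit throughout.

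**Figure D3:**
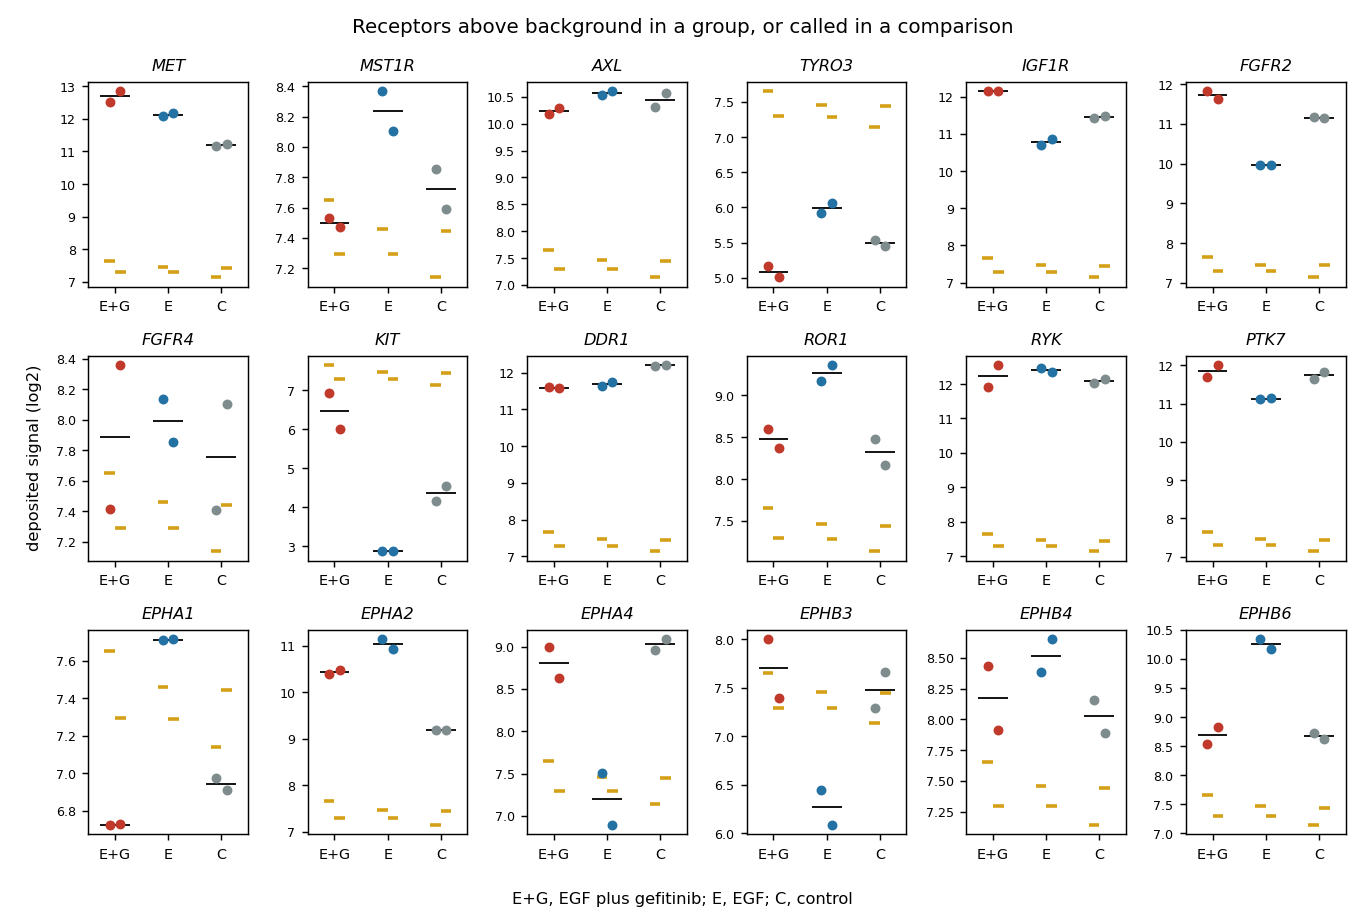
Deposited log2 signal (y axis, each panel with its own range) of the receptors that were detected in at least 1 group or called, with 1 point per array, groups from left to right EGF plus gefitinib, EGF and control, black bars for the mean of 2 arrays and gold ticks for the background limit of each array. IGF1R, FGFR2, EPHA4, EPHB3 and KIT have their lowest points in EGF, EPHB6, EPHA1, ROR1 and MST1R have their highest points there, and KIT and TYRO3 lie below every gold tick.

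Genes that act with these receptors were read from 4 lists. Their shares called are set beside those of all probe sets, of which a smaller part was detected than of the lists after the ligands. Among the 9003 probe sets detected in at least 1 group, 36% were called in EGF plus gefitinib against EGF. The share of these was 23.5% in EGF against control and 7.61% in EGF plus gefitinib against control. Of 48 listed ligands and ligand carriers, 45 were measured and 14 were detected in at least 1 group. In EGF plus gefitinib against EGF, 1 was called higher (2.22% of those measured, beside 8.86% of all probe sets) and 7 lower (15.6% beside 9.81%), with a median over the list of 0.08, beside 0.05 over all probe sets. In EGF against control, 7 were higher (15.6% beside 6.61%) and 2 lower (4.44% beside 5.3%), with a median of 0.02 beside -0.03. In EGF plus gefitinib against control, 2 were higher (4.44% beside 2.19%) and 1 lower (2.22% beside 1.7%), with a median of -0.05 beside 0.01. VEGFC, a ligand of FLT4, had 10.03 and 9.57 in EGF plus gefitinib, 12.13 and 12.17 in EGF and 9.88 and 9.83 in control, so that only the EGF arrays stood apart. It was 5.09-fold lower in EGF plus gefitinib than in EGF (-2.35 ± 0.21, SE, adjusted p = 0.000730). FGFBP1, a carrier that releases FGFs from the matrix, was 5.10-fold lower in the same comparison (-2.35 ± 0.23, adjusted p = 0.00103). CSF1, the ligand of CSF1R, was 3.39-fold lower, and EFNB1 and EFNB2, ligands of EPHB receptors, were 2.69-fold and 2.46-fold lower. KITLG, the ligand of KIT, had 8.62 and 9.35 in EGF plus gefitinib, 10.29 and 9.99 in EGF and 9.26 and 9.41 in control. The EGF arrays were the highest, and KITLG was 2.22-fold lower in EGF plus gefitinib than in EGF (-1.15 ± 0.27, adjusted p = 0.0243). GDF15, which signals through RET with its own coreceptor, was higher by at least 2.42-fold (1.47 ± 0.30, adjusted p = 0.0143). VEGFA, the ligand of FLT1 and KDR, was not called between EGF plus gefitinib and EGF (0.34 ± 0.18, interval -0.08 to 0.76, adjusted p = 0.254). VEGFA was 5.08-fold higher than control in EGF plus gefitinib (2.35 ± 0.18, adjusted p = 0.00618) and 4.02-fold higher in EGF (2.01 ± 0.18, adjusted p = 0.00144). Leaving out each array in turn, an alternative for the listed genes that was chosen after seeing the data, lost the call of KITLG without either EGF array or EGF plus gefitinib 1 (adjusted p up to 0.132). It lost that of GDF15 without the same 3 arrays (up to 0.0793), and that of VEGFA in EGF plus gefitinib against control without either control array or EGF plus gefitinib 2 (up to 0.0694). The other calls named from the ligand list held. The receptor tyrosine kinases that bind VEGFC, CSF1, KITLG and VEGFA were all below the background limit in these cells. HGF, IGF1 and FGF7, ligands of MET, IGF1R and FGFR2, were below the limit on every array as well. So were MST1, IGF2 and WNT5A, ligands of MST1R, IGF1R and ROR1. Other ligands of detected receptors were above it on all 6 arrays, namely EFNA1 and EFNA5, which bind EPHA receptors, and EFNB1 and EFNB2. FGF2, a ligand of FGF receptors, exceeded it only on the EGF arrays (8.07 and 7.99). GAS6, which binds AXL, exceeded it on 5 arrays. EFNA5 had 10.68 and 10.75 in EGF plus gefitinib, 10.16 and 10.37 in EGF and 11.59 and 11.72 in control.

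**Figure D4:**
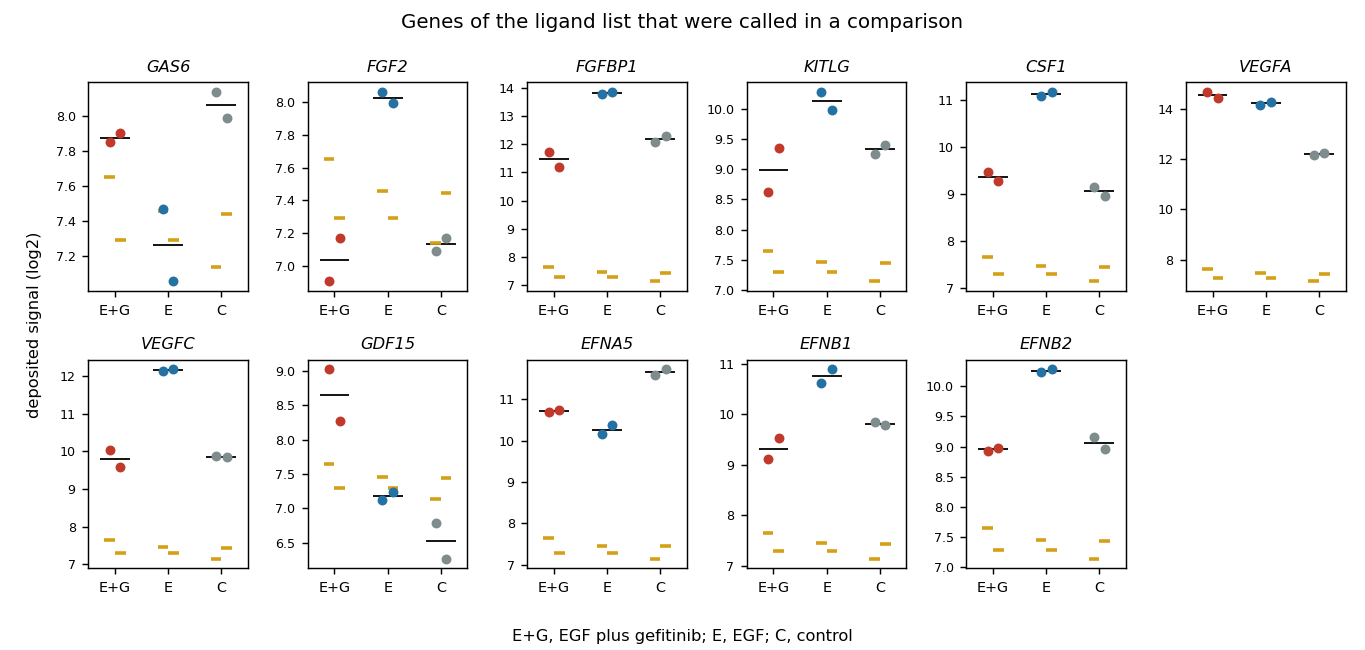
Deposited log2 signal (y axis, each panel with its own range) of the genes of the ligand list that were called in a comparison, with 1 point per array, groups from left to right EGF plus gefitinib, EGF and control, black bars for the mean of 2 arrays and gold ticks for the background limit of each array. VEGFC, CSF1, EFNB1, EFNB2 and FGFBP1 have their highest points in EGF, while the control points of VEGFA lie below those of both other groups.

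Of 27 coreceptors and genes of ligand handling, all measured and 17 detected, 2 were higher (7.41% beside 8.86% of all probe sets) and 5 lower (18.5% beside 9.81%) in EGF plus gefitinib than in EGF, with a median of 0.04 beside 0.05 over all probe sets. Of all probe sets detected in at least 1 group, 36% were called in this comparison. EGF against control gave 4 higher (14.8% beside 6.61%) and 2 lower (7.41% beside 5.3%), with a median of -0.06 beside -0.03. EGF plus gefitinib against control gave 2 higher (7.41% beside 2.19%) and 1 lower (3.7% beside 1.7%), with a median of -0.04 beside 0.01. NRP2, a coreceptor for VEGFC, was lower in EGF plus gefitinib than in EGF by at least 3.72-fold (-2.22 ± 0.21, SE, adjusted p = 0.000901), and FURIN, a protease that cuts receptor and ligand precursors, by at least 2.68-fold (-1.78 ± 0.18, adjusted p = 0.00115). SORL1, a sorting receptor, had 8.94 and 10.53 in EGF plus gefitinib, 7.34 and 7.30 in EGF and 7.89 and 8.17 in control. Its EGF plus gefitinib arrays were the highest and lay further apart than the arrays of the other groups, and 1 of the EGF arrays was below its limit. SORL1 was 5.33-fold higher in EGF plus gefitinib than in EGF (2.42 ± 0.46, adjusted p = 0.0113), a fold of 9.27 without EGF plus gefitinib 1 and of 3.07 without EGF plus gefitinib 2, and the call was lost without either EGF array (adjusted p up to 0.0608). NRP1, a coreceptor for VEGFA, was 2.36-fold higher in EGF plus gefitinib than in control and 2.51-fold higher in EGF than in control. The first of these calls was lost without any 1 of the 6 arrays (adjusted p up to 0.159), and the second without control 2 or either EGF array (up to 0.0755), while those of NRP2 and FURIN held.

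Of 30 adaptors and signal transducers, 27 were measured and 20 detected, and 5 were higher (18.5% beside 8.86% of all probe sets) and 5 lower (18.5% beside 9.81%) in EGF plus gefitinib than in EGF, with a median of 0.15 beside 0.05 over all probe sets. Most of this list was detected, and of all probe sets detected in at least 1 group 36% were called in this comparison. EGF against control gave 2 higher (7.41% beside 6.61%) and 3 lower (11.1% beside 5.3%), with a median of 0.04 beside -0.03. EGF plus gefitinib against control gave 1 higher (3.7% beside 2.19%) and 1 lower (3.7% beside 1.7%), with a median of 0.08 beside 0.01. IRS2, the adaptor that carries signals from IGF1R and INSR, had 8.94 and 9.42 in EGF plus gefitinib, 5.59 and 5.76 in EGF and 7.58 and 7.18 in control, 3 groups without overlap. It was higher in EGF plus gefitinib than in EGF by at least 3.50-fold (fitted log2 difference 3.51 ± 0.24, SE, adjusted p = 0.000339), and 3.48-fold higher than in control (1.80 ± 0.24, adjusted p = 0.0166), where 1 of the 2 control arrays exceeded its limit. GAB1, an adaptor of MET, had 9.65 and 9.81 in EGF plus gefitinib, 7.83 and 8.21 in EGF and 9.29 and 9.40 in control, and was 3.28-fold higher than in EGF (1.71 ± 0.20, adjusted p = 0.00189). GRB7 was 3.17-fold higher and AKT1, the kinase downstream of PI3K, 2.36-fold lower in the same comparison. For GRB7, EGF 1 (6.76) was below its limit and EGF 2 (7.66) above. PIK3R1, the regulatory subunit of PI3K, was 2.22-fold lower than control in EGF plus gefitinib (-1.15 ± 0.20, adjusted p = 0.0309) and 3.92-fold lower in EGF (-1.97 ± 0.20, adjusted p = 0.00200). Without any 1 of the 6 arrays the call of PIK3R1 in EGF plus gefitinib against control was lost (adjusted p up to 0.159). That of IRS2 in the same comparison was lost without either control array or EGF plus gefitinib 2 (up to 0.110), and that of GRB7 without EGF 1 or EGF plus gefitinib 2 (up to 0.141). The other calls named from this list held without each array in turn.

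Of 28 negative regulators, 25 were measured and 15 detected, and 4 were higher (16% beside 8.86% of all probe sets) and 4 lower (16% beside 9.81%) in EGF plus gefitinib than in EGF, with a median of 0.06 beside 0.05 over all probe sets. EGF against control gave 8 higher (32% beside 6.61%) and 2 lower (8% beside 5.3%), with a median of 0.26 beside -0.03. EGF plus gefitinib against control gave 5 higher (20% beside 2.19%) and 0 lower (0% beside 1.7%), with a median of 0.23 beside 0.01. Of all detected probe sets, 36%, 23.5% and 7.61% were called in the 3 comparisons. CBL and SPRY4, below the limit on every array, are among those higher in EGF than in control. CBL is also among those higher in EGF plus gefitinib than in control, and SPRY4 among those lower in EGF plus gefitinib than in EGF. The calls of CBL did not hold without each array in turn. Among the ubiquitin ligases that take receptors to the lysosome, CBLB was 3.24-fold higher in EGF plus gefitinib than in EGF (1.70 ± 0.18, SE, adjusted p = 0.00130), and CBLC was lower by at least 1.62-fold (-1.29 ± 0.19, adjusted p = 0.00439). UBASH3B, which counters receptor breakdown by CBL proteins, was lower by at least 2.08-fold (-2.31 ± 0.28, adjusted p = 0.00215). It is counted in this list, so the counts above are not of inhibitors of receptors alone. The lipid phosphatase INPPL1 was 2.79-fold higher and SPRED2, an inhibitor of the RAS pathway, 2.14-fold higher. ERRFI1, an inhibitor of EGFR, was 2.72-fold higher than control in EGF plus gefitinib and 2.99-fold higher in EGF, and LRIG3, a membrane protein related to the EGFR inhibitor LRIG1, was 2.19-fold higher in EGF plus gefitinib and 2.49-fold higher in EGF. For LRIG3 the call in EGF plus gefitinib against control was lost without any 1 of the 6 arrays (adjusted p up to 0.178), and that in EGF against control without control 2 or either EGF array (up to 0.0699). For ERRFI1 the call in EGF plus gefitinib against control was lost without either control or either EGF plus gefitinib array (up to 0.111), and for SPRED2 the call was lost without EGF 2 (0.0511). The other calls named from this list held without each array in turn.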

How the data were processed

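RNA of 6 samples was measured on 1 array each. The authors deposited log2 signals, for which the submitters' processing notes name Transcriptome Analysis Console. The sources used here do not give its version or how background, summarization and normalization were handled, and the scale was inferred from the range of the values. Of 24351 probe sets, 2903 controls were left out and 21448 were tested, without a filter. The platform annotation named 17709 of them with 1 symbol, 0 with several, and did not list 3739. The brightest probe set by the mean of the 6 arrays stood for a gene.

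The comparison used lmFit and eBayes of limma 3.58.1 (R 4.3.3, labels read with jsonlite 2.0.0) in 1 fit of 3 group means, which left 3 residual degrees of freedom beside 4.22 from the prior. Two-sided p-values received Benjamini-Hochberg adjustment across all 21448 probe sets, with calls at an adjusted p under 0.05. A fold against a group with both arrays below their limits was taken against the mean of those limits and is written as at least that fold. The fit was tested on simulated data.

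The members and lists were chosen with earlier results of these data known. Values are given on every array for members detected in a group or called. From each list, up to 6 called genes per comparison with the largest log2 difference, whose brighter group exceeded the limit on both arrays, could be named. HGF, IGF1, FGF7, MST1, IGF2, WNT5A, EFNA1, EFNA5, FGF2 and GAS6 were named after their values were seen, as ligands of detected receptors. CBL and SPRY4 were named as called genes below the limit. Alternatives were the arrays in the fit, the replicate block, single arrays left out, normalization, centring, a dim filter, an intensity trend, every probe set and a 1.5-fold minimum. For the listed genes, leaving out single arrays was added after seeing the data. The number of arrays limits the precision.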

Additional observations from a re-analysis of the deposited data

How the results depend on the processing

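No called member changed sign under any alternative run. Called under every one of them were 5 of 11 members for EGF plus gefitinib against EGF (IGF1R, FGFR2, KIT, EPHA4 and EPHB6, of which KIT was left out by the dim filter), 3 of 10 for EGF against control (EPHA2, EPHA4 and EPHB6) and 0 of 3 for EGF plus gefitinib against control. Leaving out each array in turn, the count of called members ran from 5 to 10 for EGF plus gefitinib against EGF, from 3 to 9 for EGF against control and from 0 to 2 for EGF plus gefitinib against control, where a lone array was assumed to vary like the other groups and fewer samples were fitted. The counts of 0 arose without control 1 and without EGF plus gefitinib 2, with 9 members at an unadjusted limma p under 0.05 in each case and 0 calls among all probe sets. Arrays of the same number did not deviate together (correlations of deviations -0.0035, 0.0213 and -0.0410 for the 3 pairs of groups). No shared replicate effect was seen, but this cannot tell whether samples of the same number were prepared together, which the labels do not state. With the replicate block 10, 8 and 3 members were called in the 3 comparisons, with ROR1 lost from the first and IGF1R and EPHA1 from the second. With only the arrays of the groups compared, MST1R and PTK7 were lost from the first and MERTK was gained (10 called, 9 of them kept), with IGF1R lost from the second and KIT from the third. For EGF plus gefitinib against control, 5 members were called among bright probe sets alone (9003 tested) and 7 with an intensity trend, against 3 (IGF1R, FGFR2 and DDR1 joined in both), and over all probe sets 2610 and 2770, against 834. The cause was not tested. MET and EPHA2 were called in EGF plus gefitinib against EGF under the same 2 alternatives. Median centring gave 5 higher and 6 lower members for EGF plus gefitinib against EGF in place of 6 and 5, with EPHA2 called and PTK7 not. With the 99th percentile of the negative controls 9 members were detected in place of 16. Signals below the limit, including the calls of KIT and TYRO3, have no usable size.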

Other observations

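Of the 31 members not detected in any group, 15 had no overlap between EGF plus gefitinib and EGF (57.1% of all probe sets). For EGF and control this held for 12 (55.5%), and for EGF plus gefitinib and control for 16 (50.4%). Such separation is common among all probe sets, so the cases below are only described. Some members below the background limit, or short of the threshold, had arrays that stood apart by group. MERTK had the largest difference of these, 2.15 ± 0.50 (SE) between EGF plus gefitinib and control with a limma adjusted p of 0.0628, and its control arrays differed from each other by more than the other pairs (3.48 and 5.23). It was called there with an intensity trend, and without control 2, when it was the only member called. MERTK was also called in EGF plus gefitinib against EGF with only the arrays of these groups, without either control array and with an intensity trend, and in EGF against control without control 2. EPHA7, an ephrin-A receptor, had 4.59 and 4.14 in EGF plus gefitinib, 5.14 and 4.88 in EGF and 5.06 and 5.04 in control, and was not called (adjusted p = 0.0823 against EGF and 0.127 against control). CSF1R had 5.06 and 4.74 in EGF plus gefitinib, 5.59 and 5.17 in EGF and 5.35 and 5.73 in control. Among the endothelial markers, of which none exceeded the limit on all 6 arrays, CDH5 had 7.48 and 7.71 in EGF plus gefitinib, 4.84 and 5.21 in EGF and 7.5 and 7.0 in control, and ERG had 6.96 and 7.06 in EGF plus gefitinib, 8.17 and 8.69 in EGF and 7.62 and 7.33 in control.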
